A study of Mus musculus with 3 samples.

Results

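The genes described here code for the plasminogen activators, their cell-surface receptor and a pair of their inhibitors: *Plau*, *Plat*, *Plaur*, *Serpine2* and *Serpinb2*. They were taken by symbol, through the RefSeq accession that each probe carries, and they were 5 of the 22911 named genes on the arrays. *Plau* had 2 named probes and each of the other genes had 1. The samples were Colon26, a colon adenocarcinoma line of female BALB/c mice, and its sublines LuM1, which is rapidly metastatic, and NM11, which is non-metastatic or slowly metastatic. The labels name no transgene and no treatment, and all lines were kept in RPMI1640 with 10% FBS and antibiotics and harvested after 3 days of culture. RNA of each line was hybridized to 1 single-colour array, so each line is 1 culture and 1 array, and no test between lines was possible. The ± values are the scanner software's error of a spot, which amounts to 10% of a signal with a small constant added and holds no difference between cultures.

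Plasminogen is a circulating zymogen that is cut to plasmin, a serine protease that dissolves fibrin, degrades matrix glycoproteins and activates latent metalloproteinases. The cut is made by urokinase (*Plau*) or by tissue-type plasminogen activator (*Plat*). Urokinase acts at the cell surface, where the GPI-anchored receptor uPAR (*Plaur*) holds it, whereas the tissue-type enzyme acts mainly on fibrin. Both enzymes are held in check by serpins, which trap a protease in a covalent complex. Among these are protease nexin-1 (*Serpine2*), which also blocks thrombin, and PAI-2 (*Serpinb2*). Urokinase and its receptor are long known from invading tumor cells.

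Promoter sequences were found for *Plaur*, *Serpine2* and *Serpinb2*. None was at hand for *Plau* or *Plat*, so no promoter of an activator gene is shown. The genes shown range in detection on these arrays from a signal on every array to none. Each sequence is the 250 bases before an annotated start in the gene's own direction (RefSeq, GRCm38.p6). For *Serpinb2* it is the more upstream of the starts for which a sequence was found. The annotated spans of *Plaur* and *Serpinb2* begin further upstream, at 24460937 and 107500892, so that these windows lie inside the genes. Only the *Serpine2* window adjoins the outer edge of its gene, at 79858665. Capitals mark matches on either strand, merged where they overlap. The letters of an AP-1 element were TGANTCA. Those of a GC box were GGGCGG. Those of a TATA box were TATAAA.
*Plaur*, chr7:24462233-24462482, plus strand: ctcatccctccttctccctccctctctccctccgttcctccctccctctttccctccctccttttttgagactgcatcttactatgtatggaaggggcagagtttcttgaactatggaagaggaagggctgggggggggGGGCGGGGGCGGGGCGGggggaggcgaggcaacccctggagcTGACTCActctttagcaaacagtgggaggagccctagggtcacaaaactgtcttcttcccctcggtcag
*Serpine2*, chr1:79858666-79858915, minus strand: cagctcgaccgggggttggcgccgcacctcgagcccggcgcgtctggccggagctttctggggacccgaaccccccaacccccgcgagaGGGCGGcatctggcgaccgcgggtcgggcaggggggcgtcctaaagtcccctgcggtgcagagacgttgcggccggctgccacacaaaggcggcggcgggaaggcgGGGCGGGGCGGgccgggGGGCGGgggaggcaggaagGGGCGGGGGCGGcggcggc
*Serpinb2*, chr1:107511173-107511422, plus strand: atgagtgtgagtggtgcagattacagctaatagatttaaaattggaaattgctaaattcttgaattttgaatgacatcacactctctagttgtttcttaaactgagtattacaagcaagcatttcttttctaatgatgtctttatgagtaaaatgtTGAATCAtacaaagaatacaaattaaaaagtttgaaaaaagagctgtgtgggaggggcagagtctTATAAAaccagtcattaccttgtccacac
The *Plaur* window holds 3 GC boxes, whose first bases lie between positions -111 and -100 from the start, and 1 AP-1 element at -69. The *Serpine2* window holds 6 GC boxes, the first at -161 and the last at -13, and neither of the other motifs. The *Serpinb2* window holds 1 AP-1 element at -94 and 1 TATA box at -29, and no GC box. Of all 32851 windows of this length, 6.75% hold the AP-1 letters, 32.7% the GC box letters and 12.4% the TATA letters. The G and C content was 78.8% for *Serpine2*, 59.6% for *Plaur* and 32.4% for *Serpinb2*, and the 5th and 95th percentiles over all windows were 34.8% and 73.6%. A match of letters is a description only, and no binding was measured.

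Signals were scaled to the 75th percentile of each array, which was 581, 625 and 552 for Colon26, LuM1 and NM11 before scaling and 585 after it. The scanner software called between 49.9% and 53.8% of all probes well above background. A probe below that call has no level on the array, and its ratio is a bound. For the bound it was set to the lowest signal that passed the call (26.4, 20.1 and 19.6), or to its own where that was larger. Of 11 markers of colon epithelium, 4 were well above background on the Colon26 and NM11 arrays and 5 on the LuM1 array, and *Cdh1*, *Krt18*, *Krt19*, *Cdx1*, *Vil1* and *Muc2* passed on no array. The summed scaled signal of these markers was 1368 in Colon26 cells, 530 in LuM1 cells and 465 in NM11 cells. Of 6 fibroblast markers, 3 passed on the Colon26 array and 5 on each of the LuM1 and NM11 arrays. Their summed scaled signal was 6147 in Colon26 cells, 54246 in LuM1 cells and 33298 in NM11 cells, which is the same order as that of *Plau* below. Of 5 leukocyte markers, 3 passed on each array, *Ptprc* and *Adgre1* on none, and their sum was 5893, 12772 and 5233 in Colon26, LuM1 and NM11 cells. Of 5 endothelial markers, only *Pecam1* passed on any array, and their sum lay between 74.1 and 98.5. The part of these markers in the results was not tested. In such bulk RNA, a larger share of cells that express a gene and more of its RNA per cell cannot be told apart.

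*Plau*, the urokinase gene, was the member that differed most between the lines. The scaled signal of its brighter probe (A_55_P2842483) was 325 ± 33.0 in Colon26 cells, 2537 ± 254 in LuM1 cells and 1427 ± 143 in NM11 cells. Both sublines were far above the parental line, and LuM1 was the highest. The mRNA level was 7.82-fold higher in LuM1 cells than in Colon26 cells (log2 ratio 2.97, scanner error 0.21). It was 4.40-fold higher in NM11 cells than in Colon26 cells (log2 ratio 2.14, scanner error 0.21). Between the sublines the gap was smaller, 1.78-fold in favour of LuM1 cells (log2 ratio 0.83, scanner error 0.20). Each of these gaps exceeded the scanner error.

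The second *Plau* probe (A_51_P305311) gave a dimmer reading of the same pattern. Its scaled signal was 21.2 ± 6.34 in Colon26 cells, 165 ± 17.0 in LuM1 cells and 87.5 ± 9.71 in NM11 cells. In Colon26 cells the probe was significantly but not well above background, so that its ratios to the parental line are bounds. They were at least 6.23-fold for LuM1 cells and at least 3.31-fold for NM11 cells. The ratio of LuM1 over NM11 cells, with both arrays well above background, was 1.88-fold, against 1.78-fold by the brighter probe. The order of the lines was LuM1, NM11, Colon26 by both probes.

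**Figure D1:**
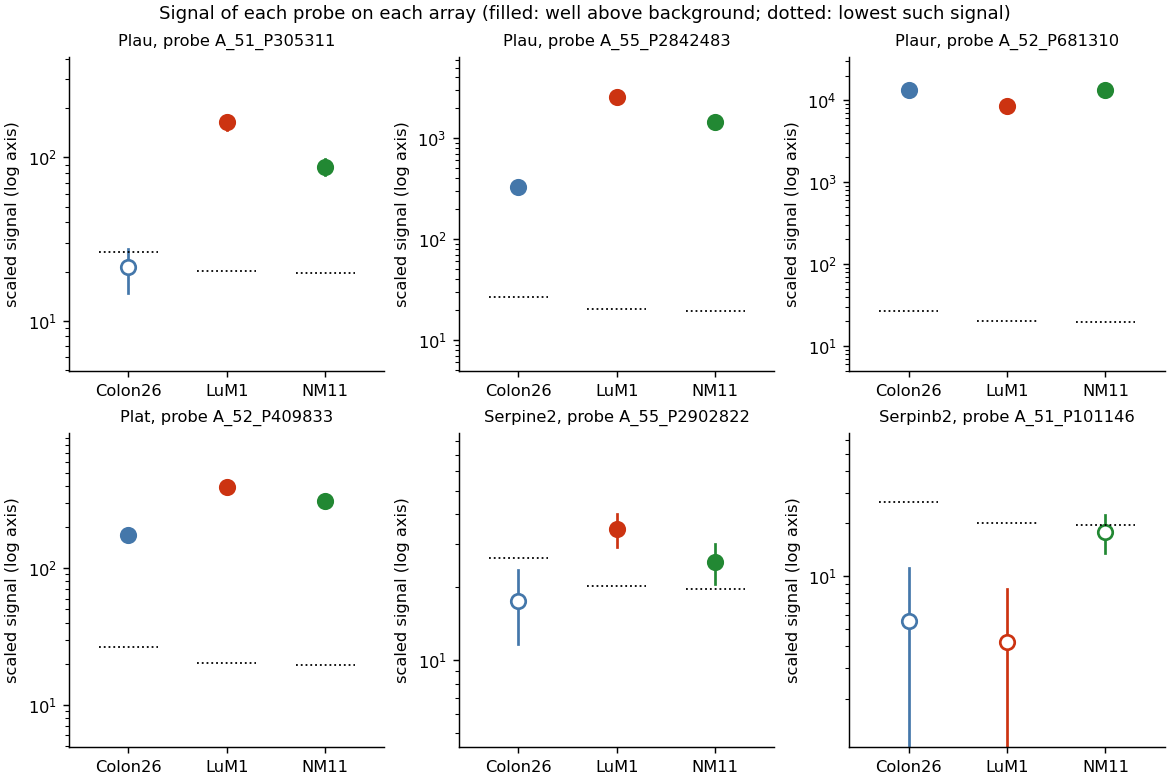
Scaled signal of each of the 6 probes on the Colon26, LuM1 and NM11 arrays, on log axes that differ between panels, so that lines are compared within a panel and not probes with each other. Bars are the scanner software's error and stop at the lower edge where it reaches 0, filled points are well above background, open points are not, and dotted lines are the lowest signal that passed this call on each array; both *Plau* panels rise from Colon26 over NM11 to LuM1, and no point of *Serpinb2* is filled.

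*Plat*, the gene of the tissue-type activator, followed the same order with smaller steps. Its scaled signal was 176 ± 18.5 in Colon26 cells, 395 ± 39.7 in LuM1 cells and 311 ± 31.4 in NM11 cells, well above background on every array. The level was 2.25-fold higher in LuM1 cells than in Colon26 cells (log2 ratio 1.17, scanner error 0.21). In NM11 cells it was 1.77-fold higher than in Colon26 cells (log2 ratio 0.82, scanner error 0.21). LuM1 and NM11 were neighbours, 1.27-fold apart, with a log2 ratio of 0.34 against a scanner error of 0.21. All 3 gaps were larger than the scanner error, the last by the narrowest margin.

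*Plaur*, the receptor gene, did not share the order of the activators. The scaled signal was 13315 ± 1332 in Colon26 cells, 8479 ± 848 in LuM1 cells and 13457 ± 1346 in NM11 cells. LuM1 was the lowest of the lines, and Colon26 and NM11 were level. The signal was 1.57-fold lower in LuM1 cells than in Colon26 cells (log2 ratio -0.65, scanner error 0.20) and 1.59-fold lower than in NM11 cells (log2 ratio -0.67, scanner error 0.20). The ratio of NM11 over Colon26 cells was 1.01, a log2 ratio of 0.02 that lay within its scanner error of 0.20. None of the *Plaur* spots was saturated, so the ceiling of the scanner did not set these values.

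The inhibitor *Serpine2*, protease nexin-1, was at the edge of detection. Its scaled signal was 17.5 ± 5.93 in Colon26 cells, 34.6 ± 5.48 in LuM1 cells and 25.4 ± 4.79 in NM11 cells, and it passed the background call in LuM1 and NM11 cells only. Before any correction the spot read 64 in Colon26 cells, 83 in LuM1 cells and 66 in NM11 cells, with surroundings of 24 to 25, so that Colon26 and NM11 nearly coincided in brightness. LuM1 cells lay at least 1.31-fold above Colon26 cells. They lay 1.36-fold above NM11 cells (log2 ratio 0.45, scanner error 0.35). No ratio was given for NM11 over Colon26 cells, because the signal in NM11 cells was below the lowest signal that passed the call on the Colon26 array.

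*Serpinb2*, which codes for PAI-2, was well above background on no array and has no ratio. Its scaled signal was 5.52 ± 5.54 in Colon26 cells and 4.23 ± 4.24 in LuM1 cells, values no larger than their own error and not significantly above background. In NM11 cells it was 17.9 ± 4.40, significantly but not well above background, and there the spot read 60 against 33 around it. In the other lines it read 38.5 against 35 (Colon26) and 40 against 33 (LuM1). These readings bound the signal of 1 probe and do not show that the gene was silent.

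Counted at a threshold of 2-fold, *Plau* and *Plat* were higher in LuM1 cells than in Colon26 cells, 2 of the 4 members with a ratio or a bound, and 0 were lower. Among all 14179 named genes with a ratio or a bound in this comparison, 13.1% were at least 2-fold higher and 11.8% at least 2-fold lower. In NM11 cells over Colon26 cells, 1 of 3 members, *Plau*, was at least 2-fold higher and 0 were lower. The shares over all 13830 genes were 8.33% and 7.9%. In LuM1 over NM11 cells, 0 of 4 members passed the threshold in either direction, where 11.1% and 8.5% of 14408 genes did. With so few members, these counts describe the genes named and no more. The comparisons share arrays and are not independent of each other.

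The place of each member among all genes well above background on both arrays gives the size of these ratios a scale. A ratio of LuM1 over Colon26 cells as high as that of *Plau* was reached by 197 of 12394 genes (1.59%, *Plau* included), and one as high as that of *Plat* by 7.92%. A ratio as low as that of *Plaur* was found in 20.6% of them, so its gap of 1.57-fold was a common one. In NM11 over Colon26 cells, 1.87% of 12469 genes reached the ratio of *Plau*, 8.53% that of *Plat* and 46.7% that of *Plaur*. Between the sublines, 10.7% of 12848 genes reached the ratio of *Plau*, 20.9% that of *Serpine2* and 25.1% that of *Plat*, and 16% were as low as *Plaur*. The median log2 ratio over all these genes was -0.13, -0.02 and -0.11 in the same order of comparisons.

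**Figure D2:**
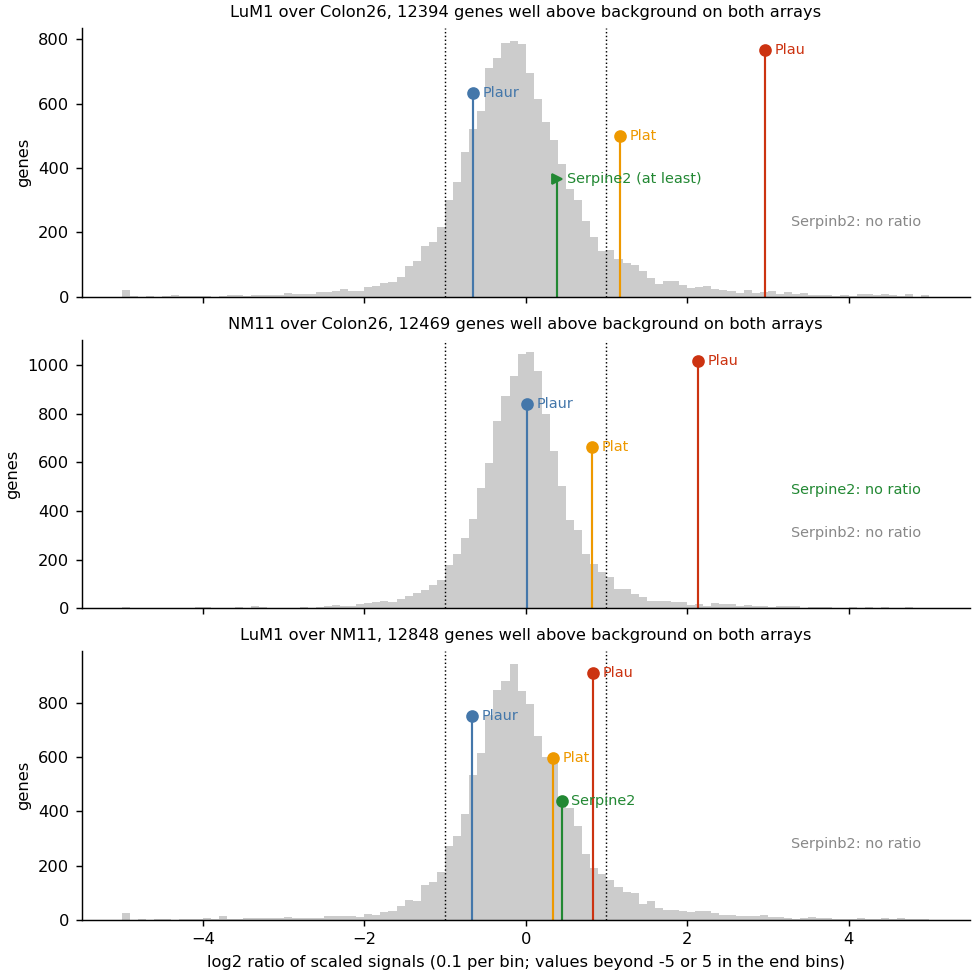
Log2 ratio of scaled signals for all genes well above background on both arrays (grey bars, number of genes per bin of 0.1) in the 3 comparisons, with the members as coloured lines and the 2-fold thresholds dotted. A triangle is a lower bound, the height of a line has no meaning, and *Plau* stands in the right tail of the upper and middle panels whereas *Plaur* lies left of the peak in the upper and lower ones.

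Genes with a like pattern were sought for *Plau*, *Plat* and *Plaur*, the members well above background on all arrays. The measure was the distance on the plane of both differences from Colon26 (log2), over 12245 genes and 3 arrays. Nearest to *Plau* were *Zfp503* at a distance of 0.13, *Macrod1* at 0.16 and *Psmb9* at 0.16. The nearest, *Zfp503*, had log2 ratios of 3.07 in LuM1 and 2.22 in NM11 cells over Colon26 cells. Around *Plat* lay *Col16a1* at 0.0061, *1700025G04Rik* at 0.022 and *Rabggta* at 0.037. Around *Plaur* lay *Psmg2* at 0.0073, *Nat9* at 0.0084 and *Atp5g3* at 0.013. With 3 points per gene a near match is easily found where genes are dense, and fewer genes lie around *Plau*.

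**Figure D3:**
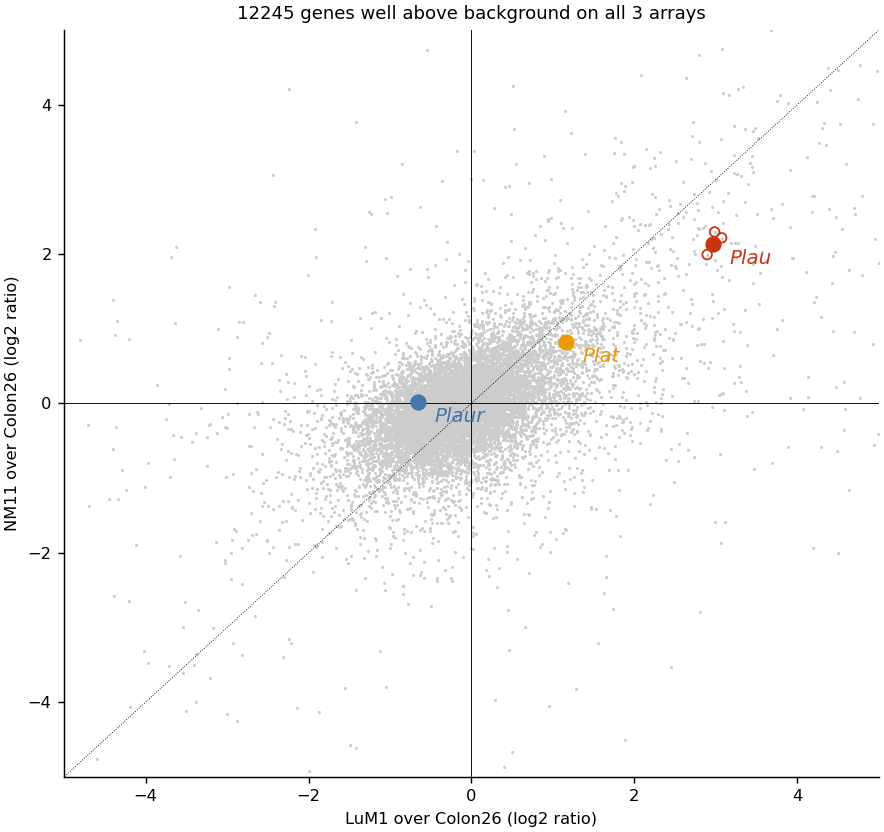
Log2 ratio of LuM1 over Colon26 cells (horizontal axis) against that of NM11 over Colon26 cells (vertical axis) for 12245 genes (grey points), with *Plau*, *Plat* and *Plaur* filled in colour and their 3 nearest genes as open circles, which the filled points of *Plat* and *Plaur* cover. Genes beyond 5 on either axis are outside the frame, the dotted line marks equal ratios, both axes share the Colon26 array, and *Plau* and *Plat* lie to the right of and below the line with positive values on both axes.

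The genes around the activators were counted in a list of 37 genes of the plasmin system, of which 22 were well above background on at least 1 array and 14 on all. Genes of this list below 4-fold are named where a count is small and were chosen after their values were seen. *Plg*, the plasminogen gene itself, was well above background on no array. Nor was *Serpinf2*, the gene of the plasmin inhibitor α2-antiplasmin, nor any fibrinogen chain gene. In LuM1 over Colon26 cells, 7 of the 20 genes with a ratio or a bound were at least 2-fold higher and 2 at least 2-fold lower. In NM11 over Colon26 cells, 5 of 18 were higher and 1 was lower, and in LuM1 over NM11 cells 7 of 21 were higher and 3 lower. The shares over all genes are those given above, between 7.9% and 13.1%. The median log2 ratio of the list was 0.02, 0.11 and 0.34 over 14, 14 and 16 genes, against -0.13, -0.02 and -0.11 over all genes.

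By role, the receptors for plasminogen differed little by the brightest probe of each gene. *Anxa2* and *S100a10*, whose products form the annexin A2 complex that binds plasminogen, *Plgrkt*, a transmembrane plasminogen receptor, and *Eno1*, whose enzyme also binds it at the cell surface, stayed within 2-fold in every comparison by that probe with the scaling used here. *Plgrkt* was 1.94-fold higher in LuM1 cells than in NM11 cells, and *S100a10* 1.73-fold lower, or 2.04-fold lower by its dimmer probe. *Lrp1* and *Vldlr*, whose receptors take up inhibited urokinase, were also within 2-fold throughout. *Mrc2*, whose collagen receptor associates with uPAR, was 1.80-fold lower in LuM1 cells than in Colon26 cells by its brighter probe and 2.27-fold lower by its dimmer one. *Igf2r*, whose receptor binds uPAR and plasminogen, was 2.89-fold higher in LuM1 cells than in Colon26 cells and 2.52-fold higher than in NM11 cells. *Lypd3*, a relative of uPAR in structure, was well above background on the NM11 array only, at least 2.79-fold above Colon26 cells.

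The widest ratios of the list were among the substrates of the system, and the metalloproteinases led them. *Mmp13*, a collagenase, had scaled signals of 6283 in LuM1 cells, 1609 in NM11 cells and 27.0 in Colon26 cells, the last not well above background. Its level was at least 233-fold higher in LuM1 cells and at least 59.6-fold higher in NM11 cells than in Colon26 cells, and 3.90-fold higher in LuM1 than in NM11 cells. *Mmp3*, stromelysin-1, whose latent form plasmin can activate, had the widest ratios of the list. It was 1762-fold higher in LuM1 cells and 511-fold higher in NM11 cells than in Colon26 cells, where its signal of 58.6 was well above background. The level of *Mmp3* was 3.45-fold higher in LuM1 cells than in NM11 cells. *Mmp13* and *Mmp3* stood in the order of *Plau*: LuM1, NM11, Colon26. *Mmp9*, a gelatinase, differed in that NM11 cells were low: its scaled signals were 11.3 in Colon26 cells, 2311 in LuM1 cells and 24.7 in NM11 cells. LuM1 cells lay at least 87.5-fold above Colon26 cells and 93.7-fold above NM11 cells. A second probe, well above background in neither Colon26 nor NM11 cells, gave at least 84.3-fold over Colon26 cells.

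Other substrates moved less. *Fn1*, the fibronectin gene, was 2.40-fold higher in LuM1 cells than in Colon26 cells by its brightest probe and 3.44-fold and 4.24-fold higher by its other probes. *Tgfb1*, whose latent product plasmin can release, was 3.07-fold higher in LuM1 cells than in Colon26 cells and 2.18-fold higher than in NM11 cells. *Hgf*, the gene of hepatocyte growth factor, was well above background on the NM11 array only, at least 2.74-fold above Colon26 cells. *Hpn*, a membrane serine protease, was well above background on the Colon26 array only, at least 3.46-fold above LuM1 and at least 3.56-fold above NM11 cells.

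*F3*, the gene of tissue factor, which starts coagulation and so the making of fibrin, did not share the order of the activators. Its scaled signal was 496 in Colon26 cells, 132 in LuM1 cells and 1930 in NM11 cells. LuM1 cells were thus the lowest and NM11 cells the highest. The level was 3.77-fold lower in LuM1 cells than in Colon26 cells, 3.89-fold higher in NM11 cells than in Colon26 cells, and 14.7-fold lower in LuM1 cells than in NM11 cells. *Thbd*, the gene of thrombomodulin, stayed within 2-fold in each comparison.

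**Figure D4:**
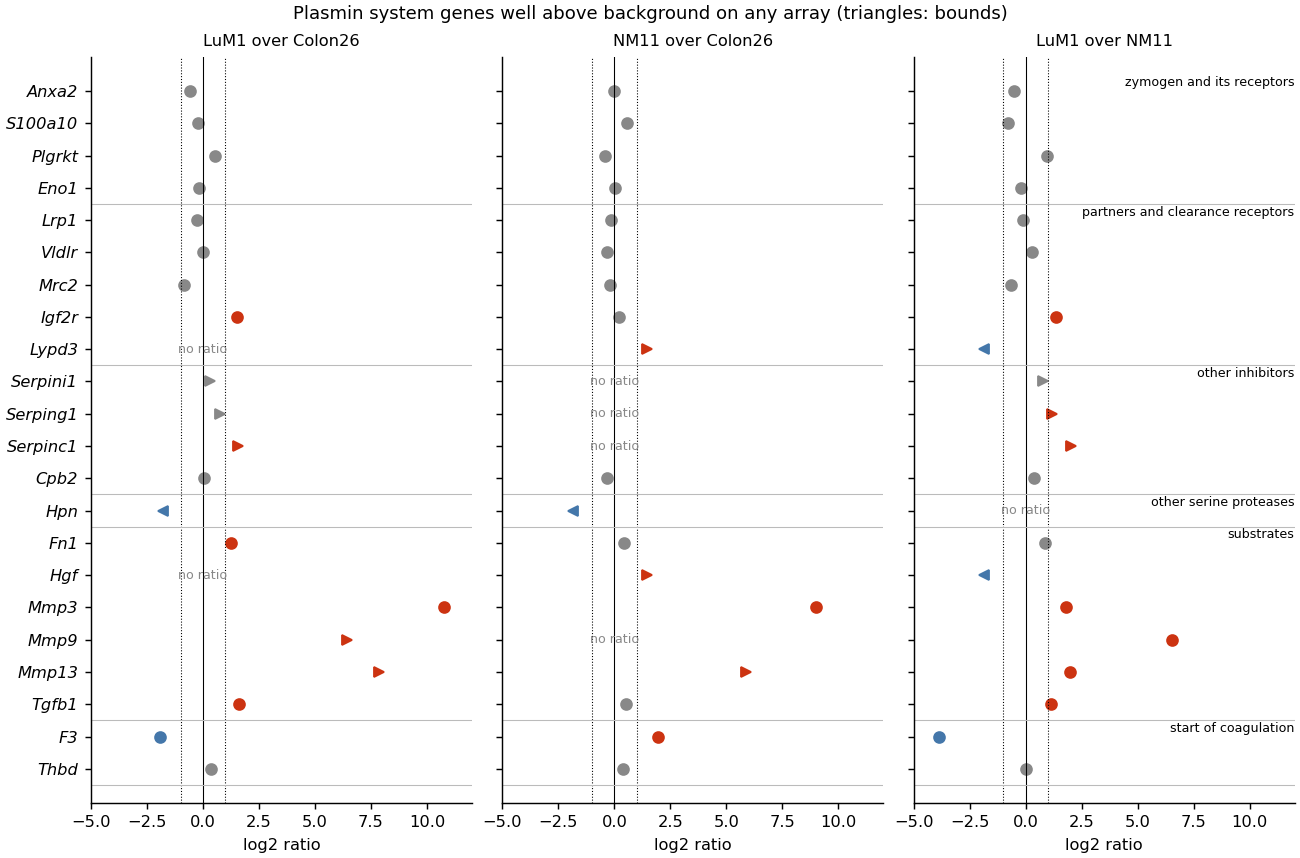
Log2 ratio of the 22 genes of the plasmin system list that passed the background call on any array, grouped by role, in the 3 comparisons. Triangles are bounds, red is at least 2-fold higher and blue at least 2-fold lower, dotted lines mark 2-fold, and the widest ratios belong to *Mmp3*, *Mmp9* and *Mmp13* among the substrates.

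*Serpine2* and *Serpinb2* belong to the serpin family, of which 60 further genes were named on the arrays and 28 were well above background on at least 1 array. In LuM1 over Colon26 cells, 7 of the 24 with a ratio or a bound were at least 2-fold higher and 1 was lower. In NM11 over Colon26 cells, 6 of 21 were higher and 1 was lower, and in LuM1 over NM11 cells 4 of 27 were higher and 3 lower. The median log2 ratio of the measured serpins was 0.25, 0.40 and -0.03, over 14, 14 and 18 genes, against -0.13, -0.02 and -0.11 over all genes. *Serpinb6a*, *Serpinb6c*, *Serpinb6d* and *Serpinb6e*, which are closely related, entered these medians as separate genes. Their log2 ratios of LuM1 over Colon26 cells were 0.25, 0.25, 0.34 and 0.25. The shares of all genes at least 2-fold higher and lower were 13.1% and 11.8%, 8.33% and 7.9%, and 11.1% and 8.5% in the same order, and the serpin counts between the sublines were near them. Of the serpins higher in LuM1 over Colon26 cells, *Serpina3i*, *Serpinb1a*, *Serpinb6b* and *Serpinc1* were well above background on the Colon26 array by no probe.

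*Serpinb1a*, which codes for an inhibitor of neutrophil elastase, was at least 13.2-fold higher in LuM1 cells and at least 8.43-fold higher in NM11 cells than in Colon26 cells. For *Serpinb6b*, LuM1 cells lay at least 51.9-fold above Colon26 cells and 20.6-fold above NM11 cells. *Serpinb9*, whose product blocks granzyme B, was well above background on every array, with scaled signals of 181 in Colon26 cells, 787 in LuM1 cells and 382 in NM11 cells. It was 4.35-fold higher in LuM1 cells and 2.11-fold higher in NM11 cells than in Colon26 cells, in the order of *Plau*. *Serpinc1*, the antithrombin gene, was well above background in LuM1 cells only, at least 2.97-fold above Colon26 cells and at least 4.01-fold above NM11 cells.

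*Serpina3b*, *Serpina3f* and *Serpina3i* were higher in both sublines than in Colon26 cells. *Serpina3b* was 3.99-fold higher in LuM1 cells and 5.19-fold higher in NM11 cells. *Serpina3f* was at least 76.8-fold and at least 125-fold higher by its brighter probe, but 4.81-fold and 6.02-fold higher by its dimmer probe, which was well above background in Colon26 cells too. *Serpina3i* was at least 14.7-fold and at least 13.5-fold higher. The *Serpina3* genes are closely related, and which of them a probe read is uncertain, although *Serpina3h* was 1.06-fold lower in LuM1 cells than in Colon26 cells. *Serpinb6b* has close relatives too. Its probe read 5.84 in Colon26 cells, where the brightest probes of *Serpinb6a* and *Serpinb6c* read 24092.5 and 20696, so it did not read those genes.

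*Serpinb7* was the serpin that was lower in both sublines, with a scaled signal of 237 in Colon26 cells and no signal well above background in LuM1 or NM11 cells. The bounds were at least 11.8-fold and at least 12.1-fold. Of the 82 spots within 5 rows and columns on the slide, its own spot included, 11 were well above background on the Colon26 array alone. The share over all spots but controls was 1.89%. The part of that cluster in the *Serpinb7* reading was not tested.

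Another scaling of the arrays multiplies all ratios of a comparison by 1 factor, and several members lay close enough to 2-fold for this to change a count. Against the scaling used here, the median log2 ratio rose by 0.45 for LuM1 over Colon26 cells and by 0.41 for LuM1 over NM11 cells with the processed values of the authors. Scaling to *Hprt* shifted it by 0.59 for LuM1 over NM11 cells and by -0.49 for NM11 over Colon26 cells. Over 11 alternatives, the ratio of *Plau* in LuM1 over Colon26 cells lay between at least 6.23-fold and 10.7-fold, and in NM11 over Colon26 cells between 3.13-fold and 4.50-fold. Between the sublines it lay between 1.78-fold and 2.67-fold and passed 2-fold under 4 of them. *Plat* lay between 1.83-fold and 3.06-fold in LuM1 over Colon26 cells, and fell under 2-fold with normexp background correction only.

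The direction of *Plaur* in LuM1 cells was the same under all 11 alternatives, but its size depended on the scaling. It was between 1.15-fold and 1.59-fold lower than in Colon26 cells and between 1.05-fold and 1.59-fold lower than in NM11 cells. The smallest gap to NM11 cells, with scaling to *Hprt*, was a log2 ratio of -0.08, within the scanner error of 0.20. *Plaur* and *Plat* have 1 probe each, well above background on every array. The alternatives of probe choice and of detection could therefore not change their ratios. The ratio of *Plaur* in NM11 over Colon26 cells changed sign under 4 alternatives, without scaling, with scaling to *Hprt* or to E1A spike-ins and with quantile normalization, and lay between 0.72 and 1.03. *Serpine2* in LuM1 over NM11 cells lay between 1.06-fold and 2.05-fold, the latter with scaling to *Hprt*.

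**Figure D5:**
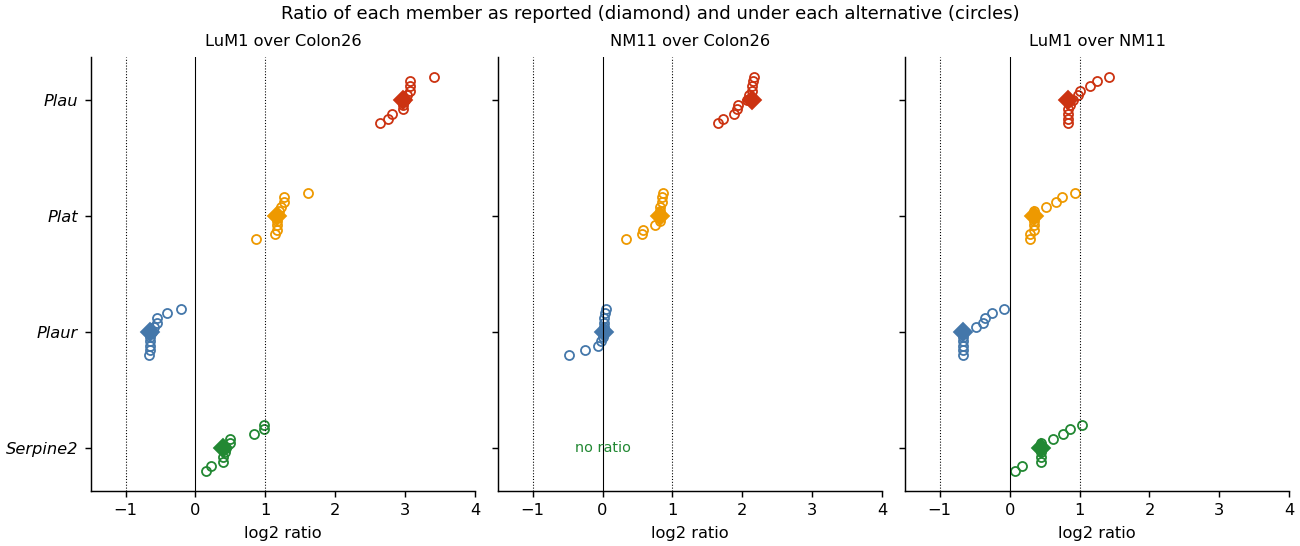
Log2 ratio of *Plau*, *Plat*, *Plaur* and *Serpine2* as reported (diamonds) and under each of up to 11 alternatives (circles, spread vertically in order of value), in the 3 comparisons, with 2-fold dotted. The values of *Serpine2* over Colon26 cells and the lowest circles of *Plau* over Colon26 cells include bounds, and the circles of *Plau* in LuM1 over NM11 cells straddle the 2-fold line whereas those over Colon26 cells stay beyond it.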

How the data were processed

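The authors deposited the intensity of each spot on 3 single-colour Agilent arrays from Feature Extraction 11.5.1.1, corrected for background but not scaled between arrays, with other columns of flags (0 or 1) for outliers, saturation and background, per the file headers. Their table of processed intensity values equals the scanner intensity times 0.654 (Colon26), 0.829 (LuM1) and 0.706 (NM11). Control spots were left out, as were 137, 74 and 99 outlier spots from the probe values. The percentile was taken over all spots but controls, and repeated probes were averaged. RefSeq accessions (GRCm38.p6) named 32994 of 56605 probes (58.3%). Probe positions are not given, since the design of the array uses an older assembly. A gene was represented by its probe with the highest mean log2 signal. Among spots of 1 repeated probe the median SD was 0.035 to 0.040 (log2). Precision is limited by the number of arrays.

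Genes of both lists at least 4-fold apart in any comparison were named by rule, with the 3 nearest genes of each member. The genes and lists were chosen with earlier results of these data known. The calls were tested on simulated data, in which the planted changes were larger than 2-fold and lay in bright probes only. Changes of 2-fold, changes in dim probes and the spread between cultures were not tested in this way. There were 12 alternatives: no scaling, scaling to the median, to *Hprt* or to E1A spike-ins, quantile normalization, normexp correction (offset 50, limma 3.58.1, R 4.3.3), the values the authors processed, a looser rule of detection, no filter, 2 other choices of probe and a 4-fold threshold. Python 3.11.15, numpy 2.4.6, pandas 2.3.3 and matplotlib 3.10.9 were used.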

Additional observations from a re-analysis of the deposited data

How the results depend on the processing

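With 1 array per line no result has a replicate check, and spots near background, such as those of *Serpine2* and *Serpinb2*, limit the precision most. No paired analysis was possible because each line has 1 array and no test was run. Of 72 counts of members and 72 counts of plasmin system genes under the alternatives, 62 and 57 stayed within 1.5 times the reported count, and no ratio of a member called 2-fold turned its direction. The cause of the other counts was not tested, except that a stricter threshold, fewer bounds or another factor between arrays follows from how each alternative is built.

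For members at least 2-fold higher in LuM1 over Colon26 cells, the count of 2 became 1 with normexp correction, where *Plat* fell to 1.83-fold, and 1 at 4-fold. In NM11 over Colon26 cells the count of 1 became 2 with the looser detection rule and 2 without a filter on dim probes. In LuM1 over NM11 cells the count of 0 became 1 without scaling, 1 with the E1A spike-ins, 1 with the authors' processed values and 2 with scaling to *Hprt*, and the count of lower members became 1 with the looser rule and 1 without the filter.

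For the plasmin system list in LuM1 over Colon26 cells, the count of 7 higher genes became 13 with the looser detection rule, 13 without the filter and 3 at 4-fold, and the count of 2 lower genes became 1 with normexp correction and 0 at 4-fold. In NM11 over Colon26 cells, 5 higher genes became 3 with scaling to *Hprt*, 3 with normexp correction and 2 at 4-fold, and 1 lower gene became 0 with normexp correction, 0 at 4-fold, 3 with the looser rule and 3 without the filter. In LuM1 over NM11 cells, 7 higher genes became 2 at 4-fold, and 3 lower genes became 1 with normexp correction and 1 at 4-fold.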
